A study of Mus musculus with 4 samples.

Results

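The 34 genes described here encode the machinery that brings glucose and amino acids into a cell, turns glucose into lactate, and adjusts both to oxygen supply. They were taken by symbol from 55401 genes whose RNA was sequenced in mouse lung CD8+ T cells, obtained by a CD3+CD8+ sort. Members were matched by name, without a limit on a measured value, but the list was chosen with earlier results of these data known. By role they comprise 2 glucose transporters, 16 glycolytic enzymes including lactate dehydrogenase, 3 regulators of glycolytic flux, 2 lactate transporters, 5 hypoxia genes, 5 amino acid transporters and the transcription factor gene Myc. The mice were C57BL/6J and belonged to 2 models, which the labels call IPF-LC and LC without spelling them out; the series title places the work in lung fibrosis and anti-tumour effects. Within each model, mice received an antibody that depletes CD4+ cells or an isotype control antibody, which made 4 groups: CD4-depleted IPF-LC, isotype IPF-LC, CD4-depleted LC and isotype LC. All groups share the strain, the tissue and the sort. Each group is 1 library. Age and the number of mice behind a library are not given in the sources used here.

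Glycolysis splits glucose into pyruvate, and lactate dehydrogenase turns pyruvate into lactate, which leaves the cell through proton-linked monocarboxylate transporters. Activated T cells are known for raising glucose uptake, glycolysis and amino acid import, with MYC and the hypoxia-inducible factor HIF-1 among the transcription factors that drive these genes. HIF-1 alpha is controlled mainly at the protein level: prolyl hydroxylases, encoded by the Egln genes, mark it for destruction when oxygen is present. The transcript level of Hif1a is therefore not a readout of the protein.

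HIF binds DNA at a short core, and the stretch upstream of several of these genes holds it. The 4 sequences show the 250 bases before the start site, 5′ to 3′, of genes on which the results turn: the glucose transporter gene Slc2a1, the hypoxia genes Egln3 and Bnip3, which went opposite ways, and the lactate exporter gene Slc16a3. Capitals mark the letters ACGTG or GCGTG on either strand. They come from RefSeq on GRCm38.p6, a different build from the GRCm39 of the expression tables.
Slc2a1, chr4:119108495-119108744, plus strand: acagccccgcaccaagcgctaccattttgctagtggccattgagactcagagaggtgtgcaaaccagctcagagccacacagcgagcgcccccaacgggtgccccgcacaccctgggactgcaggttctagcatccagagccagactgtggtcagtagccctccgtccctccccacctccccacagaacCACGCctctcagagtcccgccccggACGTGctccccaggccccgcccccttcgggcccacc
Egln3, chr12:54203875-54204124, minus strand: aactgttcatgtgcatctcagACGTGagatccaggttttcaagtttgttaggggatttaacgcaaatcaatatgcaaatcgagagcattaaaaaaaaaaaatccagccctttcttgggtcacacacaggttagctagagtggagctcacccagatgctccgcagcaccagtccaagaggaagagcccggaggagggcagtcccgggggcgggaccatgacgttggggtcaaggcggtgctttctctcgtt
Bnip3, chr7:138909507-138909756, minus strand: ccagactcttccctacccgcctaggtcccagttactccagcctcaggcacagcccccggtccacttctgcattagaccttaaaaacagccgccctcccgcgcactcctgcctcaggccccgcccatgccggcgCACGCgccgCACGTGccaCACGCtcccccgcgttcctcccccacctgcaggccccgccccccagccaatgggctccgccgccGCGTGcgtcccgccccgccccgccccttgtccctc
Slc16a3, chr11:120948817-120949066, plus strand: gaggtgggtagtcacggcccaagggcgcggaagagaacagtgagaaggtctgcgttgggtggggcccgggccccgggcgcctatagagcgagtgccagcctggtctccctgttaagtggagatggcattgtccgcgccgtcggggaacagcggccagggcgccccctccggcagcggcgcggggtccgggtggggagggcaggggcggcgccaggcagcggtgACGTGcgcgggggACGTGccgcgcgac

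In these windows the core stood 61 and 36 bases before the start of Slc2a1, 229 bases before that of Egln3 and 27 and 14 bases before that of Slc16a3. Bnip3 had 5 matches, of which those at 107 and 108 bases are the 2 strands of a single CACGTG, the E-box letters that MYC and related factors also bind. For the counts that follow, windows ran from 250 bases before to 50 bases after the start site. Such promoter windows were found for 29 of the 34 genes, 43 in all since some genes have several start sites. Of these 43 windows 34, or 79.1%, held ACGTG or GCGTG on either strand, against 44.0% of the 21262 windows of all protein-coding genes. CACGTG, which contains ACGTG on both strands, was in 14.0% of the members' windows and in 6.63% of all. Genes that were higher and genes that were lower after depletion both carried the core, and a match in letters is a description, not a site.

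Levels of a gene in different libraries are compared in CPM, counts scaled for depth by the TMM method. Different genes are compared in TPM, which also divides by transcript length. Ratios are on the log2 scale and are positive where the CD4-depleted or the IPF-LC library is higher, with a 95% interval that covers counting error only. Because each group is 1 library, no value has a replicate error, no ratio between a pair of libraries was tested and no p-value is given for one. A gene is counted as higher or lower where the libraries differ 1.5-fold or more, and the same count over the 8433 genes averaging 10 CPM or more is the background. Of the 34 genes, 31 reach that average; Pfkm, Aldoc and Pfkfb4 do not. Library totals ran between 14946569 and 16217672 counts. Cd8a and Cd8b1, which encode the CD8 coreceptor, ran between 353 and 972 CPM. Their ratios of CD4-depleted over isotype were -0.55 (-0.60 to -0.50) and -0.57 (-0.61 to -0.54) in IPF-LC. In LC they were -0.07 (-0.12 to -0.03) and 0.26 (0.22 to 0.29). The median of this ratio over 10 CD8 T cell markers was -0.19 in IPF-LC and 0.26 in LC. The part of these levels in the members' ratios was not tested. The sorts also held transcripts of other cells. Summed levels of 20 macrophage and monocyte markers were 1207 CPM in CD4-depleted and 3667 CPM in isotype IPF-LC cells, and 209 CPM in CD4-depleted and 5152 CPM in isotype LC cells. In the CD4-depleted LC library 8 of them were at 0, among them Adgre1, Marco and C1qa. Marco was at 0 in both IPF-LC libraries as well. In such bulk samples fewer cells of a type and less RNA per cell cannot be told apart.

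In IPF-LC the genes higher after CD4 depletion were nutrient transporter and hypoxia genes, namely Slc2a1, Slc3a2, Slc7a5, Hif1a and Egln3, and no glycolytic enzyme was among them. Of the 2 glucose and 5 amino acid transporters, 3 were higher by 1.5-fold or more and 0 lower. Of the 5 hypoxia genes 2 were higher and 2 lower, and of the 16 enzymes 0 were higher and 2 lower. The background was 13.0% higher and 15.0% lower. In LC the same 7 transporters held 0 on either side, the hypoxia genes 1 higher and 1 lower and the enzymes 1 higher and 2 lower, with a background of 9.28 and 11.0%. The difference between these roles was not tested.

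The enzymes are first described as a pathway. The 16 enzymes together took 0.462% (0.459 to 0.465) of all counts in CD4-depleted and 0.477% (0.473 to 0.480) in isotype IPF-LC cells, and 0.485% (0.481 to 0.488) in CD4-depleted and 0.570% (0.566 to 0.574) in isotype LC cells, with Wilson 95% intervals. The isotype LC library was thus the highest, and the other 3 lay close together. Their median log2 ratio was -0.07 for CD4-depleted over isotype IPF-LC and -0.17 for CD4-depleted over isotype LC, against 0.00 and 0.06 over the background genes. Pgam1 and Ldhb were the enzyme genes lower after depletion in IPF-LC. In LC the weakly expressed Pfkm was higher, while Tpi1 and the weakly expressed Aldoc were lower.

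**Figure D1:**
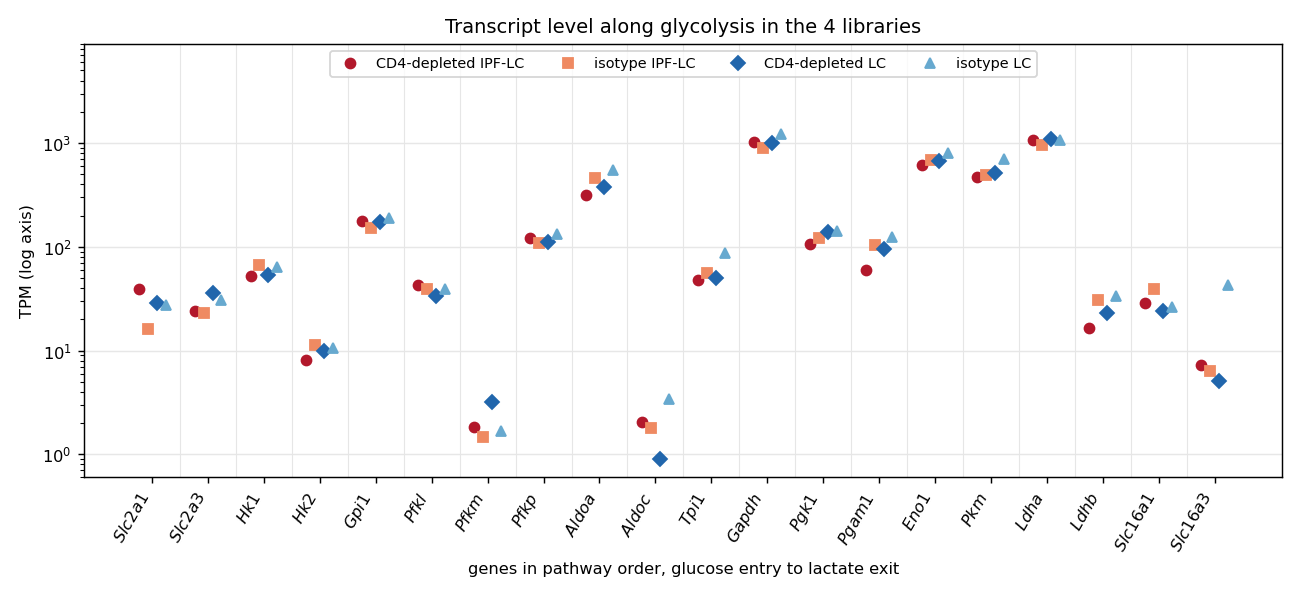
TPM on a log axis of the glucose transporters, the 16 glycolytic enzymes and the lactate transporters, in the order of the pathway; each symbol is 1 library. The 4 symbols of most enzymes lie close together, with Ldha and Gapdh near the top in every library, while the isotype LC library stands alone at the right end, with 42.5 TPM of Slc16a3.

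Glucose enters through facilitative transporters, of which Slc2a1 encodes GLUT1 and Slc2a3 encodes GLUT3. Slc2a1 stood at 74.0 CPM in CD4-depleted and 34.6 CPM in isotype IPF-LC cells, and 52.8 CPM in CD4-depleted and 52.0 CPM in isotype LC cells. The CD4-depleted IPF-LC library was the highest and the isotype IPF-LC library the lowest, with the LC libraries alike and in between. The depletion ratio was 1.10 (0.95 to 1.25) in IPF-LC and 0.02 (-0.12 to 0.16) in LC. Slc2a3 did not share this pattern: its levels were 62.4 CPM in CD4-depleted and 61.6 CPM in isotype IPF-LC cells, and 97.4 CPM in CD4-depleted and 78.8 CPM in isotype LC cells, so that both LC libraries lay above both IPF-LC libraries. Per length, the TPM of Slc2a1 over that of Slc2a3 was 1.62 in CD4-depleted and 0.698 in isotype IPF-LC cells, and 0.812 in CD4-depleted and 0.909 in isotype LC cells. Slc2a1 therefore exceeded Slc2a3 in 1 library, CD4-depleted IPF-LC, and lay below it in the other 3.

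The first step inside the cell is the phosphorylation of glucose by hexokinase. Hk1 was the main form, with 154 CPM in CD4-depleted and 188 CPM in isotype IPF-LC cells, and 155 CPM in CD4-depleted and 159 CPM in isotype LC cells. Hk2, the form that growth signals are known to induce, was low, at 24.3 CPM in CD4-depleted and 19.1 CPM in isotype IPF-LC cells, and 23.1 CPM in CD4-depleted and 27.7 CPM in isotype LC cells. Its depletion ratios were 0.35 (0.13 to 0.57) in IPF-LC and -0.26 (-0.47 to -0.06) in LC, opposite in direction. On the TPM scale, where the authors' estimate of its length differed between libraries, the IPF-LC ratio of Hk2 turned to -0.44. Hk1 exceeded Hk2 per length in each library, by a TPM ratio between 5.42 and 6.48. Gpi1, which encodes the isomerase that follows, had ratios of 0.17 (0.11 to 0.23) in IPF-LC and -0.02 (-0.08 to 0.04) in LC.

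Phosphofructokinase commits the sugar to glycolysis and is built from platelet, liver and muscle type subunits, encoded by Pfkp, Pfkl and Pfkm. Pfkp made up between 72.9 and 76.6% of the summed TPM of the 3 genes and Pfkl between 22.4 and 26.1%. Pfkm contributed 1.11% in CD4-depleted and 0.972% in isotype IPF-LC cells, and 2.16% in CD4-depleted and 0.957% in isotype LC cells. The subunit mix was thus nearly the same throughout. Pfkm rested on 57 counts in CD4-depleted and 45 in isotype IPF-LC cells, and on 98 in CD4-depleted and 47 in isotype LC cells, and its LC depletion ratio of 1.03 (0.52 to 1.57) is the only one of the 16 enzymes past 1.5-fold on the higher side. Pfkp had depletion ratios of 0.22 (0.15 to 0.28) in IPF-LC and -0.18 (-0.24 to -0.12) in LC, and Pfkl of -0.06 (-0.17 to 0.05) in IPF-LC and -0.23 (-0.36 to -0.11) in LC.

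Aldolase and triose phosphate isomerase produce the 3-carbon sugars. Aldoa, the main aldolase gene, was lower with depletion in both models by nearly the same amount, at 292 CPM in CD4-depleted and 411 CPM in isotype IPF-LC cells, and 337 CPM in CD4-depleted and 469.8 CPM in isotype LC cells. The ratios were -0.49 (-0.55 to -0.44) in IPF-LC and -0.48 (-0.53 to -0.43) in LC, short of 1.5-fold in each. Aldoc was barely present, with at most 4.66 CPM, and in LC it stood at 15 counts in CD4-depleted against 72 in isotype cells, a ratio of -2.25 (-3.19 to -1.47). Tpi1 set the isotype LC library apart, with 49.1 CPM in CD4-depleted and 53.7 CPM in isotype IPF-LC cells, and 47.4 CPM in CD4-depleted and 80.6 CPM in isotype LC cells. Its LC depletion ratio was -0.76 (-0.90 to -0.63) and its IPF-LC one -0.13 (-0.27 to 0.01).

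Among the enzymes of the payoff phase, Gapdh, which yields the NADH of the pathway, differed in direction between the models, with depletion ratios of 0.27 (0.23 to 0.31) in IPF-LC and -0.17 (-0.21 to -0.13) in LC. Its levels were 779 CPM in CD4-depleted and 646 CPM in isotype IPF-LC cells, and 742 CPM in CD4-depleted and 836 CPM in isotype LC cells. Pgk1, whose kinase product makes ATP, had ratios of -0.14 (-0.22 to -0.05) in IPF-LC and 0.07 (-0.01 to 0.15) in LC. Pgam1, the phosphoglycerate mutase gene, was the enzyme gene with the lowest ratio in IPF-LC. It stood at 69.9 CPM in CD4-depleted and 118 CPM in isotype IPF-LC cells, and 107 CPM in CD4-depleted and 132 CPM in isotype LC cells, which put the CD4-depleted IPF-LC library below the other 3. The ratio was -0.75 (-0.86 to -0.65) in IPF-LC and -0.31 (-0.40 to -0.21) in LC.

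Eno1, the main enolase gene, had ratios of -0.09 (-0.12 to -0.05) in IPF-LC and -0.16 (-0.20 to -0.13) in LC. Pkm, the pyruvate kinase gene, stood at 787 CPM in CD4-depleted and 782 CPM in isotype IPF-LC cells, and 804 CPM in CD4-depleted and 1054 CPM in isotype LC cells, with only the isotype LC library apart from the rest. Its depletion ratio was 0.01 (-0.03 to 0.05) in IPF-LC and -0.39 (-0.42 to -0.36) in LC. The deposited counts of Pfkp, Gapdh, Pgk1, Pgam1, Eno1, Pkm, Hif1a and Bnip3 held fractions in 1 library or more, as estimated counts do where reads match several genes, so near-identical copies make these 8 less certain. Of near copies that the tables name, Eno1b took between 112 and 153 counts and Pgam1-ps2 between 9 and 20. The counts of Eno1 were between 12658 and 14607, and those of Pgam1 between 1090 and 2038.

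Lactate dehydrogenase is a tetramer of A and B chains, and the A chain is the form tied to lactate production. Ldha was among the most abundant members, at 1067 CPM in CD4-depleted and 903 CPM in isotype IPF-LC cells, and 1030.4 CPM in CD4-depleted and 975 CPM in isotype LC cells, and its depletion ratios of 0.24 (0.21 to 0.27) in IPF-LC and 0.08 (0.05 to 0.11) in LC lay well within 1.5-fold. Ldhb stood at 10.7 CPM in CD4-depleted and 16.8 CPM in isotype IPF-LC cells, and 15.6 CPM in CD4-depleted and 17.2 CPM in isotype LC cells. CD4-depleted IPF-LC cells had the least, with a ratio of -0.64 (-0.93 to -0.36) in IPF-LC and -0.14 (-0.40 to 0.11) in LC. The TPM of Ldha over that of Ldhb was 65.6 in CD4-depleted and 30.9 in isotype IPF-LC cells, and 46.8 in CD4-depleted and 32.1 in isotype LC cells. The excess of the A chain was largest in the CD4-depleted library of each model, more so in IPF-LC. Its counting error is set mainly by the 167 to 266 counts of Ldhb, and the excess also depends on the deposited length of Ldhb. That length was 821 bases in CD4-depleted and 715 in isotype IPF-LC cells, and 874 in CD4-depleted and 707 in isotype LC cells. On the TPM scale the depletion ratio of Ldhb was -0.88 in IPF-LC and -0.52 in LC.

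Of the 3 regulators of flux, Pfkfb4 was lower after depletion in both models and Pfkfb3 in LC. Pfkfb3 and Pfkfb4 encode bifunctional enzymes that make and break fructose 2,6-bisphosphate, the activator of phosphofructokinase. Pfkfb3 stood at 22.8 CPM in CD4-depleted and 26.7 CPM in isotype IPF-LC cells, and 16.8 CPM in CD4-depleted and 44.8 CPM in isotype LC cells, highest in the isotype LC library and lowest in the CD4-depleted LC library. The depletion ratio was -0.23 (-0.44 to -0.02) in IPF-LC and -1.41 (-1.62 to -1.21) in LC. Pfkfb4 was low and behaved alike in both models, with 5.90 CPM in CD4-depleted and 11.1 CPM in isotype IPF-LC cells, and 6.83 CPM in CD4-depleted and 12.6 CPM in isotype LC cells. Its ratios were -0.90 (-1.29 to -0.53) in IPF-LC and -0.88 (-1.23 to -0.53) in LC; on the TPM scale the IPF-LC one was only -0.23, within 1.5-fold.

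Pdk1 encodes a kinase that inhibits pyruvate dehydrogenase, and it is a classical HIF target. It stood at 195 CPM in CD4-depleted and 243 CPM in isotype IPF-LC cells, and 222 CPM in CD4-depleted and 156 CPM in isotype LC cells. The isotype LC library had the lowest level. The depletion ratios were -0.32 (-0.39 to -0.25) in IPF-LC and 0.50 (0.43 to 0.58) in LC, opposite in direction and each within 1.5-fold.

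At the exit of the pathway, a single library stood out. Slc16a3 encodes MCT4, the lactate exporter of highly glycolytic cells, and had 12.6 CPM in CD4-depleted and 8.70 CPM in isotype IPF-LC cells, and 7.72 CPM in CD4-depleted and 64.0 CPM in isotype LC cells. In counts this was 197 in CD4-depleted and 136 in isotype IPF-LC cells, and 121 in CD4-depleted and 989 in isotype LC cells. The level was thus 8.26-fold lower in the CD4-depleted LC library, and 7.33-fold lower in the isotype IPF-LC library, than in the isotype LC library. The LC depletion ratio was -3.05 (-3.34 to -2.78), the lowest of the 34 genes, and the IPF-LC one 0.54 (0.22 to 0.86). Slc16a1, the gene of the broadly expressed transporter MCT1, did not share this: it stood at 94.2 CPM in CD4-depleted and 124 CPM in isotype IPF-LC cells, and 76.5 CPM in CD4-depleted and 78.6 CPM in isotype LC cells, highest with isotype antibody in IPF-LC. The TPM of Slc16a1 over that of Slc16a3 was 3.99 in CD4-depleted and 6.24 in isotype IPF-LC cells, and 4.73 in CD4-depleted and 0.620 in isotype LC cells.

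The isotype LC library was also the highest in the summed markers of most other cell types measured. Its macrophage and monocyte sum was 5152 CPM against 209 CPM after depletion in LC. Summed levels of 10 neutrophil markers were 17.9 CPM in CD4-depleted and 14.5 CPM in isotype IPF-LC cells, and 11.2 CPM in CD4-depleted and 234 CPM in isotype LC cells. S100a8 and S100a9, which mark neutrophils, were at 0 counts in CD4-depleted LC cells, against 245 and 297 in isotype LC cells, and Ly6g was at 0 in all 4 libraries. For 10 fibroblast markers the sums were 49.7 CPM in CD4-depleted and 161 CPM in isotype IPF-LC cells, and 67.1 CPM in CD4-depleted and 566 CPM in isotype LC cells. Gsn alone made up most of each, at 42.3 CPM in CD4-depleted and 104 CPM in isotype IPF-LC cells, and 51.0 CPM in CD4-depleted and 458 CPM in isotype LC cells. Lung epithelial markers came to 25.5 CPM in CD4-depleted and 53.9 CPM in isotype IPF-LC cells, and 16.2 CPM in CD4-depleted and 86.4 CPM in isotype LC cells. Endothelial markers came to 156 CPM in CD4-depleted and 262 CPM in isotype IPF-LC cells, and 139 CPM in CD4-depleted and 330.3 CPM in isotype LC cells. Pecam1 alone stood at 137 CPM in CD4-depleted and 134 CPM in isotype IPF-LC cells, and 129 CPM in CD4-depleted and 145 CPM in isotype LC cells. Of the 5 endothelial markers averaging 10 CPM or more, the other 4 were lower by 1.5-fold or more after depletion in each model. The background was 15.0% lower in IPF-LC and 11.0% in LC. Natural killer cell markers came to 182 CPM in CD4-depleted and 253 CPM in isotype IPF-LC cells, and 80.3 CPM in CD4-depleted and 393 CPM in isotype LC cells. B cell markers were highest in isotype IPF-LC cells, with 302 CPM in CD4-depleted and 497 CPM in isotype IPF-LC cells, and 352 CPM in CD4-depleted and 393 CPM in isotype LC cells. The CD4 T cell markers, given further on, were not highest in isotype LC cells either. All sums of this paragraph were lower after depletion in LC, as Slc16a3, Pfkfb3, Tpi1, Vegfa and Myc were, and their part in those levels was not tested. In IPF-LC the macrophage sum was also lower after depletion, as Pfkfb4, Vegfa, Bnip3 and Myc were, while Slc16a3 had a ratio above 0.

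Of the hypoxia genes, 2 were higher and 2 lower in the CD4-depleted IPF-LC library. Hif1a itself stood at 656 CPM in CD4-depleted and 327 CPM in isotype IPF-LC cells, and 611 CPM in CD4-depleted and 473 CPM in isotype LC cells. Both CD4-depleted libraries lay above both isotype libraries, and isotype IPF-LC was the lowest. The depletion ratio was 1.00 (0.95 to 1.05) in IPF-LC and 0.37 (0.32 to 0.41) in LC. Egln3, a prolyl hydroxylase gene that HIF itself induces, was the only member higher by 1.5-fold or more in both models. Its level was 23.8 CPM in CD4-depleted and 11.1 CPM in isotype IPF-LC cells, and 17.6 CPM in CD4-depleted and 9.06 CPM in isotype LC cells, and its ratios were 1.09 (0.83 to 1.36) in IPF-LC and 0.96 (0.66 to 1.26) in LC. Egln1, the gene of the main oxygen sensor, had 20.7 CPM in CD4-depleted and 17.2 CPM in isotype IPF-LC cells, and 12.9 CPM in CD4-depleted and 8.93 CPM in isotype LC cells, so that IPF-LC exceeded LC with either antibody.

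Bnip3 and Vegfa, also known HIF targets, went the other way. Bnip3, a mitophagy receptor gene, stood at 15.1 CPM in CD4-depleted and 27.8 CPM in isotype IPF-LC cells, and 13.6 CPM in CD4-depleted and 20.0 CPM in isotype LC cells, with both isotype libraries above both CD4-depleted ones. The ratios were -0.88 (-1.12 to -0.65) in IPF-LC and -0.56 (-0.82 to -0.30) in LC; in LC it reached 1.5-fold with DESeq2 size factors or library totals. Vegfa, the gene of the angiogenic growth factor VEGF-A, had 21.4 CPM in CD4-depleted and 33.7 CPM in isotype IPF-LC cells, and 11.2 CPM in CD4-depleted and 33.8 CPM in isotype LC cells. The isotype libraries held nearly the same level, and the ratios were -0.65 (-0.86 to -0.45) in IPF-LC and -1.59 (-1.85 to -1.34) in LC. The hypoxia genes therefore held members on both sides in each model, with a median ratio of 0.27 in IPF-LC and 0.37 in LC.

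**Figure D2:**
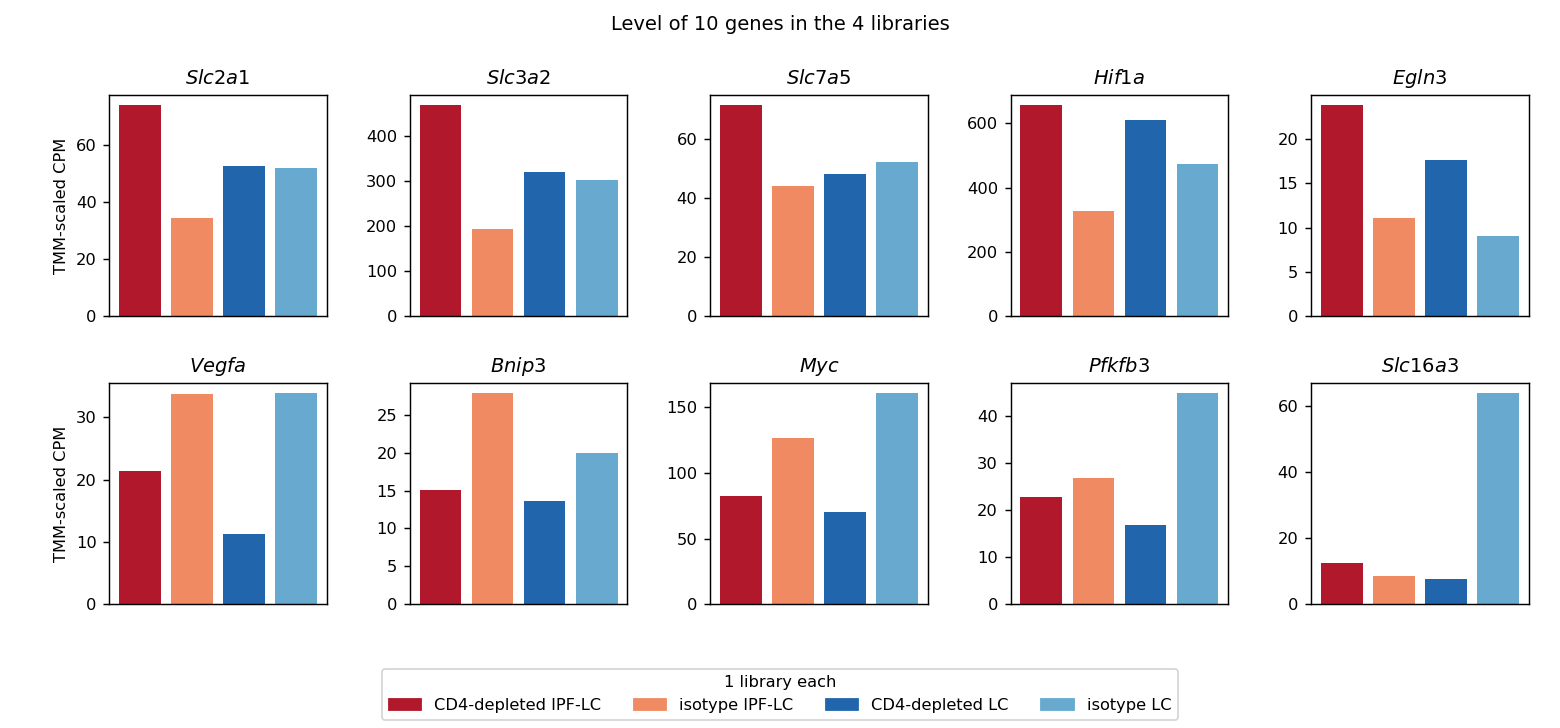
TMM-scaled CPM of 10 genes, 1 bar per library, each panel with its own axis starting at 0. Slc2a1, Slc3a2, Slc7a5 and Hif1a are lowest in the isotype IPF-LC library; Egln3 is higher, and Vegfa, Bnip3 and Myc are lower, in the CD4-depleted library of both models; Slc16a3 is high in the isotype LC library alone, at 64.0 CPM.

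Of the 5 amino acid transporter genes, Slc3a2 and Slc7a5 were higher by 1.5-fold or more in CD4-depleted IPF-LC cells, and the ratios of the other 3 lay between 0 and 0.22. Slc3a2 encodes CD98, the heavy chain that carries LAT1, the light chain encoded by Slc7a5, to the cell surface. Slc3a2 had the highest IPF-LC depletion ratio of the 34 genes, 1.27 (1.21 to 1.34), against 0.09 (0.03 to 0.15) in LC. Its levels were 468 CPM in CD4-depleted and 194 CPM in isotype IPF-LC cells, and 321 CPM in CD4-depleted and 302 CPM in isotype LC cells. Slc7a5 stood at 71.5 CPM in CD4-depleted and 44.0 CPM in isotype IPF-LC cells, and 48.2 CPM in CD4-depleted and 52.2 CPM in isotype LC cells, with ratios of 0.70 (0.56 to 0.84) in IPF-LC and -0.11 (-0.26 to 0.03) in LC. As with Slc2a1 the LC libraries lay between those of IPF-LC. On the TPM scale the IPF-LC ratio of Slc7a5 was 0.34, within 1.5-fold. The TPM of the heavy chain gene over that of the light chain gene was 15.3 in CD4-depleted and 8.50 in isotype IPF-LC cells, and 15.0 in CD4-depleted and 13.3 in isotype LC cells.

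The other 3 amino acid transporter genes differed little. Slc1a5, which encodes the glutamine transporter ASCT2, had ratios of 0.22 (0.17 to 0.28) in IPF-LC and 0.10 (0.04 to 0.16) in LC. Those of Slc38a1 were 0.15 (0.07 to 0.24) in IPF-LC and 0.06 (-0.02 to 0.15) in LC, and those of Slc38a2, whose product also carries small neutral amino acids, were 0.14 (0.09 to 0.19) in IPF-LC and 0.24 (0.19 to 0.30) in LC. Slc38a2 stood at 448 CPM in CD4-depleted and 406 CPM in isotype IPF-LC cells, and 363 CPM in CD4-depleted and 307 CPM in isotype LC cells, above 300 CPM throughout.

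Myc, whose product drives many of these genes in activated T cells, was lower after depletion in both models, at 82.8 CPM in CD4-depleted and 127 CPM in isotype IPF-LC cells, and 70.6 CPM in CD4-depleted and 161 CPM in isotype LC cells. Both isotype libraries lay above both CD4-depleted libraries. The ratios were -0.62 (-0.72 to -0.51) in IPF-LC and -1.19 (-1.29 to -1.08) in LC. In the CD4-depleted IPF-LC library Myc was thus lower while Slc2a1, Slc3a2 and Slc7a5 were higher.

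**Figure D3:**
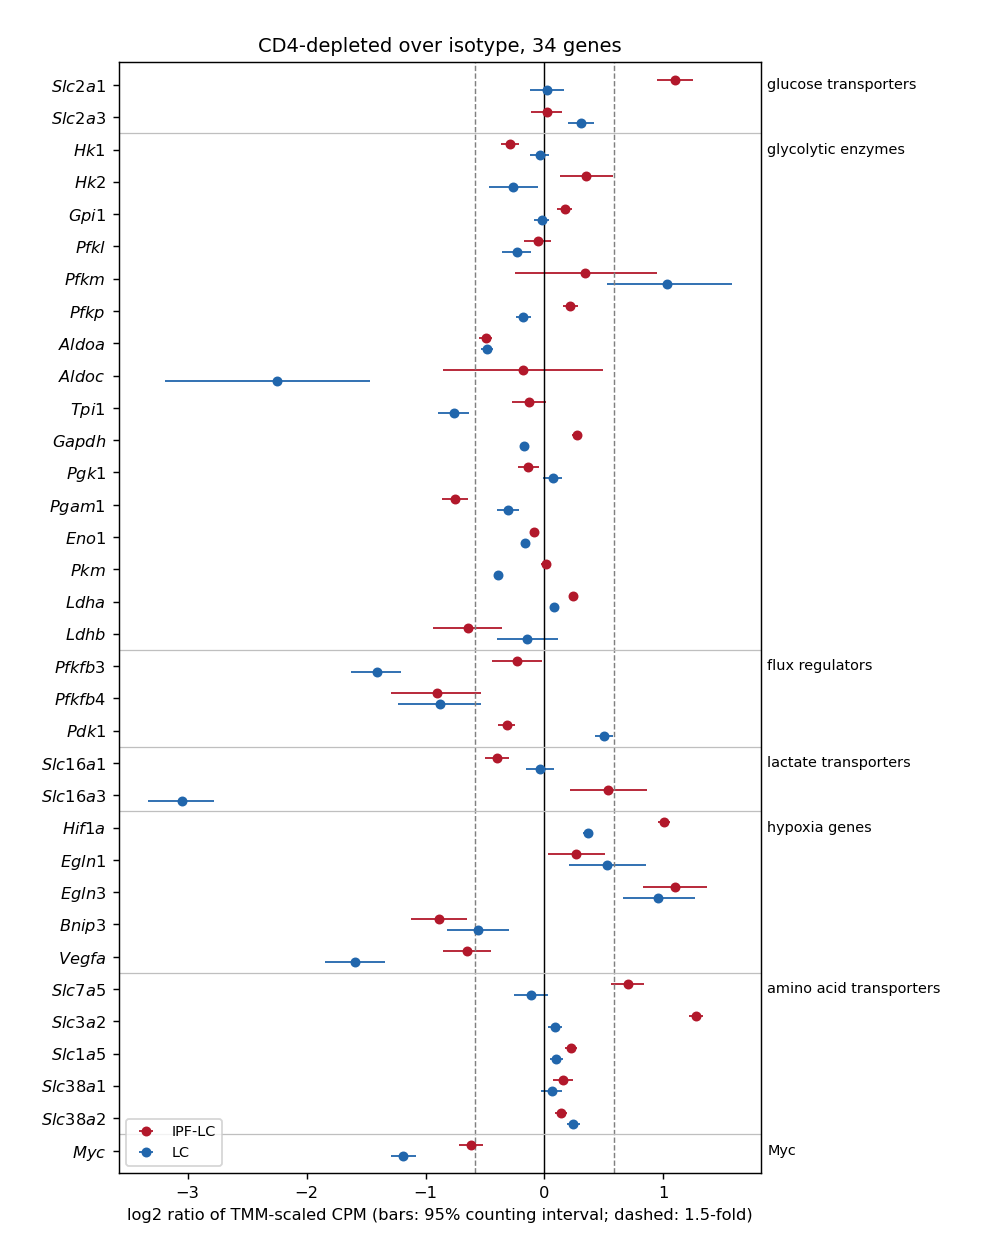
Log2 ratio of CD4-depleted over isotype for the 34 genes in IPF-LC and in LC; bars are 95% counting intervals and dashed lines mark 1.5-fold. Of the glycolytic enzymes Pgam1 and Ldhb in IPF-LC, and Pfkm, Aldoc and Tpi1 in LC, lie beyond the dashed lines, and Aldoa lies at -0.49 and -0.48 within them, while Slc3a2 and Slc2a1 lie at 1.27 and 1.10 in IPF-LC only, and Slc16a3 at -3.05 in LC.

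Counted over all 34 genes, 5 (14.7%) lay 1.5-fold or more above isotype in CD4-depleted IPF-LC cells and 6 (17.6%) that far below, where the background was 13.0 and 15.0%. The members as a group were thus near the background in this comparison. In LC 2 (5.88%) were higher and 7 (20.6%) lower, where the background was 9.28 and 11.0%. Among the 31 members averaging 10 CPM or more, as the background genes do, 5 (16.1%) were higher and 5 (16.1%) lower in IPF-LC. In LC 1 (3.23%) of these 31 was higher and 5 (16.1%) were lower. Of all 34 genes, 1 was higher in both models, Egln3, and 3 were lower in both, Pfkfb4, Vegfa and Myc, where the background was 2.75 and 4.66%. No member was 1.5-fold higher in 1 model and 1.5-fold lower in the other, and 18 were within 1.5-fold in both. The depletion comparisons of the models share no library. Nearest to the limit among those called were Myc and Ldhb in IPF-LC, at -0.62 and -0.64, and just short of it were Bnip3 in LC, at -0.56, and Slc16a3 in IPF-LC, at 0.54. At 2-fold the IPF-LC counts were 4 higher (Slc2a1, Slc3a2, Egln3 and Hif1a) and 0 lower, with a background of 4.08 and 6.02%, and those of LC 1 higher (Pfkm) and 5 lower (Slc16a3, Aldoc, Vegfa, Pfkfb3 and Myc), with 2.59 and 5.85%. With the whole interval beyond 1.5-fold, IPF-LC held 4 higher and 2 lower, with a background of 8.51 and 9.82%, and LC 1 higher and 6 lower, with 5.37 and 7.78%.

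The depletion ratio of IPF-LC minus that of LC was 1.08 (0.87 to 1.28) for Slc2a1, 1.18 (1.10 to 1.27) for Slc3a2 and 0.81 (0.62 to 1.01) for Slc7a5. The intervals again cover counting error only. For Hif1a the difference was 0.63 (0.57 to 0.70) and for Egln3 0.14 (-0.25 to 0.53), which was not detectable at this depth. Among the main enzymes it was 0.16 (0.12 to 0.21) for Ldha, 0.08 (0.03 to 0.13) for Eno1 and -0.01 (-0.09 to 0.06) for Aldoa.

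Only a fit to all 4 libraries could be tested, edgeR's quasi-likelihood test of treatment and model as additive effects, with 1 residual degree of freedom. It called none of the 34 genes for depletion at an adjusted p under 0.05, as it called 0.00% of the 13045 genes tested. At an unadjusted p under 0.05 it held 1 higher member, Hif1a, and 4 lower ones, Myc, Aldoa, Vegfa and Pgam1, where 3.10 and 6.85% of all genes lay. The smallest adjusted p of a member in this fit was that of Myc, 0.340, at a log2 change of -0.92, lower in both models. Over the 5 fits, which were edgeR with 3 filters, DESeq2 and limma-voom, the adjusted p of Myc ran from 0.0530 to 0.528. DESeq2 called Hif1a higher in the same design (log2 change 0.67, adjusted p = 0.0385), and the adjusted p of Hif1a ran from 0.0385 to 0.632 over edgeR, its other filters, DESeq2 and limma-voom. DESeq2 called 0.767% of all genes higher and 2.91% lower. Limma-voom called 0 members and 0.00% of genes. At an unadjusted p under 0.05 it had 2 members higher and 5 lower, where 3.68 and 8.69% of genes lay. On genes averaging 10 CPM or more, edgeR called 0 of 31 members, where 0.462 and 1.13% of genes were called, and had 2 higher and 4 lower at an unadjusted p under 0.05, where 5.16 and 6.10% of genes lay. For IPF-LC over LC, edgeR, DESeq2 and limma-voom called 0 of the 34, where edgeR and limma-voom called 0.00% of genes and DESeq2 0.00% higher and 0.0383% lower. At an unadjusted p under 0.05 they had 0 members for that term, where edgeR had 0.690 and 1.33% of genes, DESeq2 0.866 and 1.17%, and limma-voom 0.974 and 2.61%. On genes averaging 10 CPM or more, edgeR called 0 members and 0.00% of genes for it and had 1 lower at an unadjusted p under 0.05, Slc2a3, where 1.22 and 1.72% of genes lay.

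With isotype antibody, Slc16a3 was the member that differed most between IPF-LC and LC. Of the 34 genes 3 (8.82%) were higher by 1.5-fold or more, Egln1, Slc16a1 and Pdk1, and 6 (17.6%) were lower, where the background was 8.44 and 10.2%. The lower ones were Slc16a3 at -2.87 (-3.15 to -2.62), Aldoc at -0.79 (-1.38 to -0.23), Pfkfb3 at -0.74 (-0.92 to -0.57), Slc3a2 at -0.64 (-0.71 to -0.57), Slc2a1 at -0.59 (-0.75 to -0.43) and Tpi1 at -0.59 (-0.71 to -0.46). Of the 16 enzymes 14 had a ratio below 0, as 4002 of the 8433 background genes had, and Hk1 and Pfkl were the exceptions. The isotype LC library had the highest macrophage, neutrophil and fibroblast sums, whose part in these ratios was not tested. On the TPM scale Pdk1, at 0.44, and Slc16a1, at 0.57, were within 1.5-fold, while Hif1a, at -0.70, and Pfkfb4, at -0.65, passed it, and Tpi1 lay just within it with a prior count of 2, at -0.58. At 2-fold 0 were higher and 1 lower, Slc16a3, with a background of 1.91 and 4.10%, and with the whole interval beyond 1.5-fold 1 was higher and 1 lower, with 4.14 and 6.36%. The isotype LC library also enters the LC depletion comparison.

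After depletion, 4 members were higher and 3 lower in IPF-LC than in LC, and Slc16a3 and Aldoc were on the opposite side from the isotype libraries. The 4 genes (11.8%) higher by 1.5-fold or more in IPF-LC were Aldoc at 1.28 (0.41 to 2.28), Vegfa at 0.93 (0.66 to 1.20), Slc16a3 at 0.71 (0.38 to 1.05) and Egln1 at 0.68 (0.43 to 0.95). Lower by as much were 3 (8.82%), Pfkm at -0.77 (-1.27 to -0.29), Slc2a3 at -0.64 (-0.76 to -0.52) and Pgam1 at -0.61 (-0.72 to -0.50); the background was 9.14 and 8.60%. At 2-fold 1 was higher, Aldoc, and 0 lower, with a background of 3.30 and 2.57%, and the whole interval beyond 1.5-fold gave 1, Vegfa, and 0, with 5.37 and 4.62%. On the TPM scale Slc16a3, at 0.45, and Slc2a3, at -0.55, were within 1.5-fold. All 5 hypoxia genes and all 5 amino acid transporter genes had ratios above 0, as 4211 of the 8433 background genes had. In the same comparison 15 of 16 measured macrophage and monocyte markers were higher by 1.5-fold or more in IPF-LC. So were 7 of 7 measured natural killer cell markers, among them Fcer1g, Tyrobp, Klrk1 and Eomes. Of 19 proliferation genes 13 were lower, and the 9 mitochondrially encoded genes had a median ratio of 0.53. The part of all these genes in the members' ratios was not tested. Egln1 was the only member past 1.5-fold in the same direction with either antibody, at 0.94 (0.65 to 1.25) with isotype antibody. Slc2a1 and Slc3a2, lower in IPF-LC with isotype antibody, had ratios of 0.49 (0.36 to 0.62) and 0.55 (0.49 to 0.60) after depletion.

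**Figure D4:**
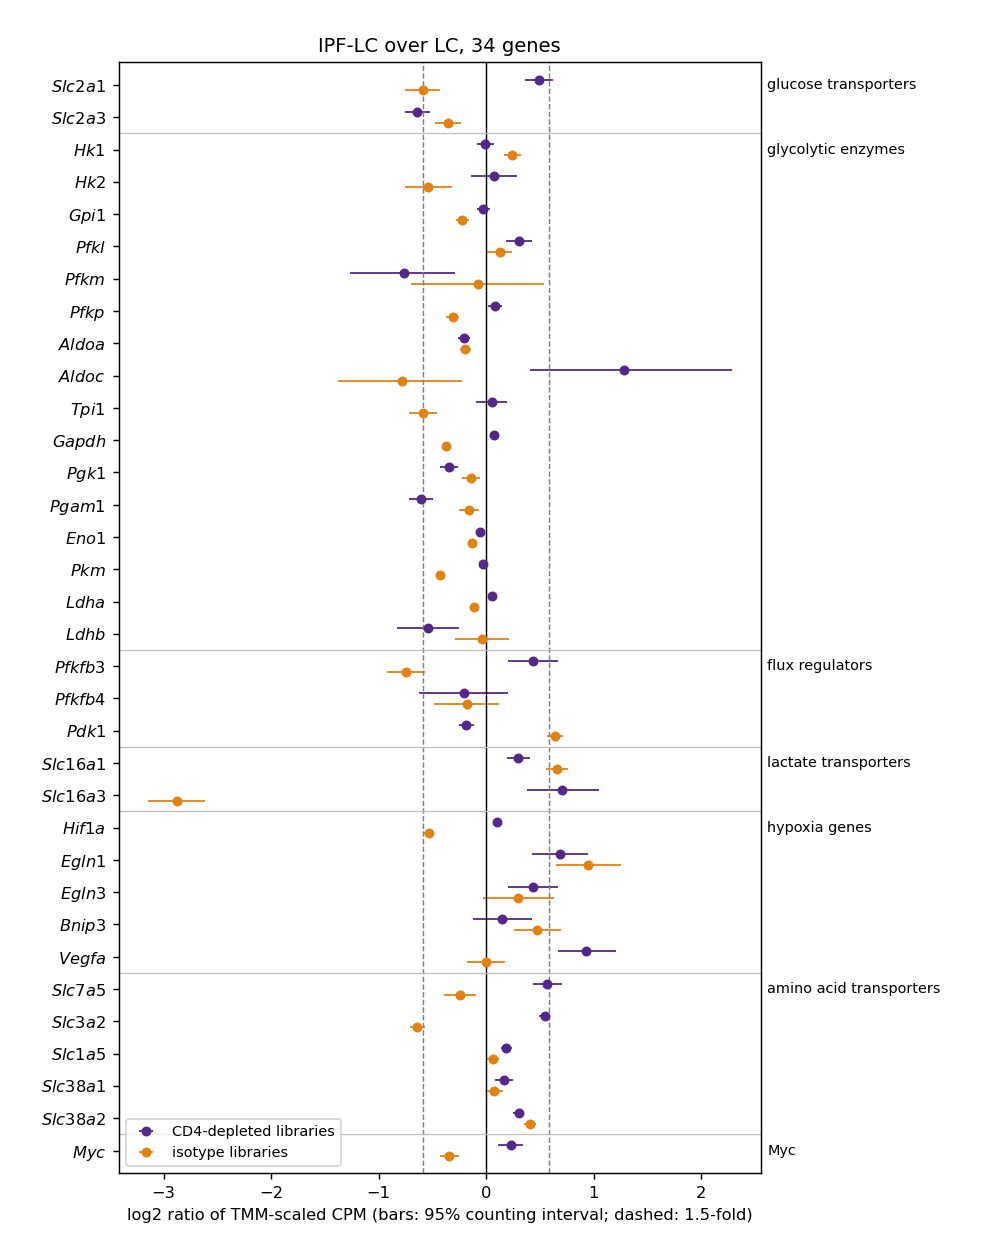
Log2 ratio of IPF-LC over LC for the 34 genes, among CD4-depleted libraries and among isotype libraries; bars are 95% counting intervals and dashed lines mark 1.5-fold. Slc16a3 lies at 0.71 among CD4-depleted and at -2.87 among isotype libraries, while Egln1 lies at 0.68 and 0.94.

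Other genes of the same pathways were counted in the same way, over those averaging 10 CPM or more. All such counts stand against the background of 13.0% higher and 15.0% lower after depletion in IPF-LC and of 9.28 and 11.0% in LC. Among further glycolytic genes, 0 of 8 measured lay 1.5-fold or more above the isotype library after depletion in IPF-LC and 3 that far below, and in LC 0 lay above and 1 below. The lower ones in IPF-LC were Eno3, an enolase gene known from muscle, Pgm2 and Tigar, with Eno3 at -0.90 (-1.19 to -0.62) in IPF-LC and -1.43 (-1.86 to -1.03) in LC. Of the 16 genes of the tricarboxylic acid cycle, 0 were past 1.5-fold in either model. For the pentose phosphate pathway, 0 of 6 measured lay 1.5-fold or more above the isotype library after depletion in IPF-LC and 1 that far below, and in LC 0 lay above and 1 below. Rpe was the lower one in IPF-LC, at -0.73 (-0.85 to -0.60), and Pgd, the 6-phosphogluconate dehydrogenase gene, the lower one in LC, at -0.76 (-0.88 to -0.65). Among genes of pyruvate entry into mitochondria, 0 of 12 measured lay 1.5-fold or more above the isotype library after depletion in IPF-LC and 1 that far below, and in LC 1 lay above and 0 below. Pdk2, a relative of Pdk1, was the lower one, at -0.99 (-1.21 to -0.77), and Pdpr, a regulator of pyruvate dehydrogenase phosphatase, the higher one, at 0.81 (0.56 to 1.05).

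Among further hypoxia targets, 2 of 10 measured lay 1.5-fold or more above the isotype library after depletion in IPF-LC and 1 that far below, and in LC 2 lay above and 1 below. Mxi1, which encodes an antagonist of MYC, was higher in both models, at 0.95 (0.81 to 1.10) in IPF-LC and 1.05 (0.90 to 1.21) in LC. Bhlhe40, a transcriptional repressor gene, stood at 922 CPM in CD4-depleted and 236 CPM in isotype IPF-LC cells, and 688 CPM in CD4-depleted and 816 CPM in isotype LC cells, lowest by far in the isotype IPF-LC library, as Slc2a1 and Slc3a2 were. Plin2, a lipid droplet gene, was lower in both, at -0.98 (-1.11 to -0.85) in IPF-LC and -3.70 (-3.90 to -3.51) in LC. Among regulators of HIF, 1 of 11 measured lay 1.5-fold or more above the isotype library after depletion in IPF-LC and 1 that far below, and in LC 2 lay above and 2 below. Siah2, a ubiquitin ligase gene that acts on the prolyl hydroxylases, was higher in both, at 0.78 (0.61 to 0.96) in IPF-LC and 1.89 (1.66 to 2.14) in LC, and Epas1, the HIF-2 alpha gene, lower, at -1.27 (-1.46 to -1.09) in IPF-LC and -3.60 (-3.88 to -3.33) in LC. Plin2 and Epas1 were highest in the isotype LC library, as the sum of the macrophage and monocyte markers was. Of those markers, Lyz2 and Ctss were highest in the isotype IPF-LC library instead. The part of macrophages and monocytes was not tested.

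Among further nutrient transporters, 4 of 10 measured lay 1.5-fold or more above the isotype library after depletion in IPF-LC and 0 that far below, and in LC 0 lay above and 1 below. Slc2a8, a glucose transporter gene, had 1.40 (1.07 to 1.75) in IPF-LC and 0.03 (-0.29 to 0.35) in LC. Slc36a4, an amino acid transporter gene, had 1.30 (1.08 to 1.52) in IPF-LC and 0.07 (-0.11 to 0.25) in LC, and Slc38a9, which encodes a lysosomal arginine sensor, 1.07 (0.77 to 1.38) in IPF-LC and -0.58 (-0.88 to -0.28) in LC. Each was lowest in the isotype IPF-LC library, as Slc3a2 and Slc7a5 were; the other 2 counted were Slc16a6, higher in IPF-LC, and Slc6a6, lower in LC. Of genes in the MYC network, 2 of 19 measured lay 1.5-fold or more above the isotype library after depletion in IPF-LC and 2 that far below, and in LC 1 lay above and 1 below. Odc1, the ornithine decarboxylase gene and a classical MYC target, stood at 1704 CPM in CD4-depleted and 520.4 CPM in isotype IPF-LC cells, and 1126 CPM in CD4-depleted and 654 CPM in isotype LC cells, above its isotype level in both models while Myc was below. Srm, the spermidine synthase gene, was lower, at -0.88 (-1.07 to -0.70) in IPF-LC and -0.90 (-1.08 to -0.73) in LC. For mTORC1 genes, 2 of 14 measured lay 1.5-fold or more above the isotype library after depletion in IPF-LC and 1 that far below, and in LC 1 lay above and 2 below. Castor1, which encodes a cytosolic arginine sensor, was higher in both models, at 1.44 (1.13 to 1.78) in IPF-LC and 0.63 (0.33 to 0.94) in LC.

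Measures of cell state moved as well. Of 19 measured proliferation genes, 8 were higher by 1.5-fold or more after depletion in IPF-LC and 11 in LC, and 0 were lower; the background was 13.0% higher and 15.0% lower in IPF-LC and 9.28 and 11.0% in LC, here and for the activation genes. Their sum was 1248 CPM in CD4-depleted and 972 CPM in isotype IPF-LC cells, and 1986 CPM in CD4-depleted and 1279.8 CPM in isotype LC cells. Of 14 activation genes, 7 were higher and 1 lower after depletion in IPF-LC, and 0 were higher and 7 lower in LC, with Pdcd1 at 1.88 (1.74 to 2.02) in IPF-LC and -0.66 (-0.76 to -0.56) in LC. The summed markers of CD4 T cells, regulatory T cell genes included, were 307 CPM in CD4-depleted and 68.1 CPM in isotype IPF-LC cells, and 319 CPM in CD4-depleted and 155 CPM in isotype LC cells, with Cd4 itself at 0 counts in CD4-depleted and 73 in isotype IPF-LC cells, and 16 in CD4-depleted and 12 in isotype LC cells. Ctla4 made up most of each sum, at 219 CPM in CD4-depleted and 39.4 CPM in isotype IPF-LC cells, and 196 CPM in CD4-depleted and 92.1 CPM in isotype LC cells. Foxp3, Ikzf2 and Cd40lg were also higher by 1.5-fold or more after depletion in both models. Il2ra, which is on the activation list too, was higher by as much in IPF-LC only, with a ratio of 0.30 in LC. Zbtb7b, like Cd4, was lower in IPF-LC, at 3 counts in CD4-depleted and 28 in isotype cells. The sum thus went opposite to Cd4 in IPF-LC and is not a measure of how many CD4 T cells were present. The sums were higher in the CD4-depleted IPF-LC library together with Slc2a1, Slc3a2, Slc7a5 and Hif1a, and the part of these markers in those levels was not tested.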

How the data were processed

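RNA from CD8+ T cells of mouse lung was sequenced in 4 libraries, 1 per group, and groups were taken from the labels. The submitters' processing notes name RSEM 1.3.3, STAR 2.7.11a, MultiQC 1.25.2, fastp 0.23.4 and the build GRCm39; their roles and the annotation release are not given in the sources used here. The labels' protocols name SMART-Seq amplification and mention no molecular identifiers. Reads copied from the same molecule therefore cannot be told from reads of separate molecules. All intervals cover error in counting reads only and may be too narrow for counts of molecules. Expected counts, the authors' estimate of reads assigned to each gene, were deposited without normalisation; between 5.49 and 5.89% were not whole and all were rounded. The deposited TPM values are scaled by length and to the same total in each library. The deposited FPKM values were not used. Where a symbol had 2 rows (Aldoa), the more abundant stood for it.

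Counts were scaled by TMM (edgeR 4.0.16); ratios used a prior count of 0.5 and exact conditional binomial 95% intervals (scipy 1.17.1). Differences of ratios used the normal approximation for log counts. The additive fit used edgeR's quasi-likelihood test after filterByExpr, two-sided, with Benjamini-Hochberg adjustment over all genes. DESeq2 1.42.0 and limma 3.58.1 (voom) were alternatives, as were other scalings, the TPM scale with 0.5 added, a prior count of 2, a 2-fold limit and an average of 10 CPM as minimum. With 1 residual degree of freedom, the spread comes from how far the models respond differently and holds no replicate error. All 34 members are named. From each other list, up to 3 genes averaging 10 CPM or more, with the largest depletion ratio in either model, were to be named. Further list genes, some averaging less than 10 CPM, are named outside this rule, mostly to show what lies behind a sum or a count. Members and lists were chosen with earlier results of these data known. Promoter letters were counted on both strands in windows from 250 bases before to 50 bases after the start site. The sequences shown hold only the 250 bases before it.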

Additional observations from a re-analysis of the deposited data

Results flagged for a closer look

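In 3 genes the depletion ratios of the models had opposite directions, with both counting intervals clear of 0 and a gap of at least 1.5-fold. With 1 library per group the difference itself was not tested. The same count over the background genes was not made. Whether these genes stand out from the background in this respect is therefore not known. For Slc16a3, the lactate exporter gene, the IPF-LC ratio minus the LC ratio was 3.58, from 0.54 in IPF-LC and -3.05 in LC. For Pdk1, the pyruvate dehydrogenase kinase gene, it was -0.82, from -0.32 and 0.50. For Hk2, the inducible hexokinase gene, it was 0.61, from 0.35 and -0.26, and on the TPM scale the IPF-LC ratio of Hk2 was -0.44.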

How the results depend on the processing

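Of 136 member ratios, 34 in each of 4 comparisons, 125 kept their side of the 1.5-fold limit under DESeq2 size factors, library totals, TPM and a prior count of 2, and none past the limit changed sign. DESeq2 size factors moved ratios by at most 0.034 and library totals by at most 0.075. Of genes 1.5-fold or more below isotype after depletion in IPF-LC there were 6; at 2-fold there were 0, and 2 had their whole interval beyond 1.5-fold. The 2 higher after depletion in LC became 1 with an average of 10 CPM or more, at 2-fold and by the whole interval. For IPF-LC over LC with isotype antibody, the 3 higher became 1 on TPM, 0 at 2-fold and 1 by the interval, and the 6 lower became 1 at 2-fold and 1 by the interval. After depletion the 4 higher became 1 and 1, and the 3 lower 0 and 0. The amino acid transporter median after depletion in IPF-LC, 0.22, was 0.15 with library totals and 0.34 on TPM; on TPM it was -0.047 in LC (0.09 in CPM), and for IPF-LC over LC 0.44 after depletion (0.30) and -0.11 with isotype antibody (0.06). The median of the flux regulators was -0.45 without Pfkfb4 for LC depletion (-0.88), -0.65 on TPM for IPF-LC over LC with isotype antibody (-0.18), and 0.082 on TPM and 0.13 without Pfkfb4 after depletion (-0.18). DESeq2 called 1 member for depletion where edgeR called 0. Without mitochondrially encoded genes the enzymes' shares were 0.471, 0.485, 0.492 and 0.579% in CD4-depleted IPF-LC, isotype IPF-LC, CD4-depleted LC and isotype LC. The cause of these shifts was not tested. No paired analysis was possible because each group is 1 library, and no replicate could be left out for the same reason. Genes under about 100 counts, such as Pfkm and Aldoc, are limited by depth.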

Other observations

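For some members the deposited length, by which TPM divides, differed between libraries. The effective length of Hk2, in bases and weighted by the authors' software over its transcripts, was 3762 in CD4-depleted and 2222 in isotype IPF-LC cells, and 3028 in CD4-depleted and 3569 in isotype LC cells. That of Pfkfb4 was 1767 in CD4-depleted and 2883 in isotype IPF-LC cells, and 2268 in CD4-depleted and 2125 in isotype LC cells. For Slc7a5 it was 3205 in CD4-depleted and 2611 in isotype IPF-LC cells, and 3081 in CD4-depleted and 3034 in isotype LC cells. Transcript tables were not analysed here, so the transcripts behind these lengths are not given.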
